A study of Mus musculus with 12 samples.

Results

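Hearts of mice labelled epidermal growth factor receptor (EGFR) knockout were compared between 9 and 7 weeks of age by RNA-seq. The 9wkKO group held 3 samples of cardiac cells from knockout mice aged 9 weeks, and the 7wkKO group held 3 from knockout mice aged 7 weeks. Values of 7wkWT, 3 samples labelled wild type at 7 weeks, are given beside some genes from the other deposited table. The authors' deposited tables give 1 FPKM value per group (fragment counts divided by transcript length and library size) and no value per sample. Of 24340 gene rows, the 12046 with the authors' status OK were tested by Cuffdiff and make up this comparison, together with 15531 of 34534 isoform rows. Both groups carry the knockout, so this is a comparison of age, or of anything else that differed between the groups, within 1 genotype. The promoter of any Cre driver, the deleted part of the gene, the sex of the mice and the time of collection do not appear in the labels. No label ties the 3 samples of a group to separate animals, and the deposited p-values then measure only the spread between these samples, which may be technical.

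EGFR is a receptor tyrosine kinase that signals through ERK and related kinases. The adult heart is built mostly of ventricular muscle by mass, with atrial muscle, pacemaker and conduction cells, valves, vessels, fibroblasts and resident immune cells beside it, and each of these carries marker transcripts that the others lack or hold at low level. Its transcripts also follow the circadian clock, circulating glucocorticoids and acute stress at tissue collection. In bulk tissue, fewer cells of a type and less RNA per cell cannot be told apart. A gene is called here where the authors' deposited q was under 0.05. The fold is the log2 ratio of the group values, 9wkKO over 7wkKO, and the error given with it is the one implied by the deposited test statistic alone. That statistic is more conservative than the deposited p, so the number of calls it keeps is given beside counts of called list members. Levels are FPKM throughout, and every FPKM, p and q is the authors' deposited value.

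In all, 561 of 12046 tested genes were called, 4.66% of those tested. They were 228 higher genes (1.89%) and 333 lower genes (2.76%) in 9wkKO. The statistic alone called 69 genes (0.573%), 10 higher (0.0830%) and 59 lower (0.490%). At an unadjusted p under 0.05 there were 1555 genes (12.9%), 787 higher and 768 lower. These shares over all tested genes are the background for the counts of list members below. The median log2 fold over all tested genes was 0.01, and 5% of genes lay below -0.42 and 5% above 0.43. Larger changes were mostly falls. Among called genes, 94 fell by at least 1 on the log2 scale and 29 rose by at least 1, and beyond 2 on the log2 scale there were 28 lower genes and 3 higher genes. Genes just past the threshold without a call had q from 0.0503 for Adar, an RNA-editing enzyme, to 0.0527 for Thbs3, a thrombospondin. The smallest fold of a called gene was 0.42 in size.

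**Figure D1:**
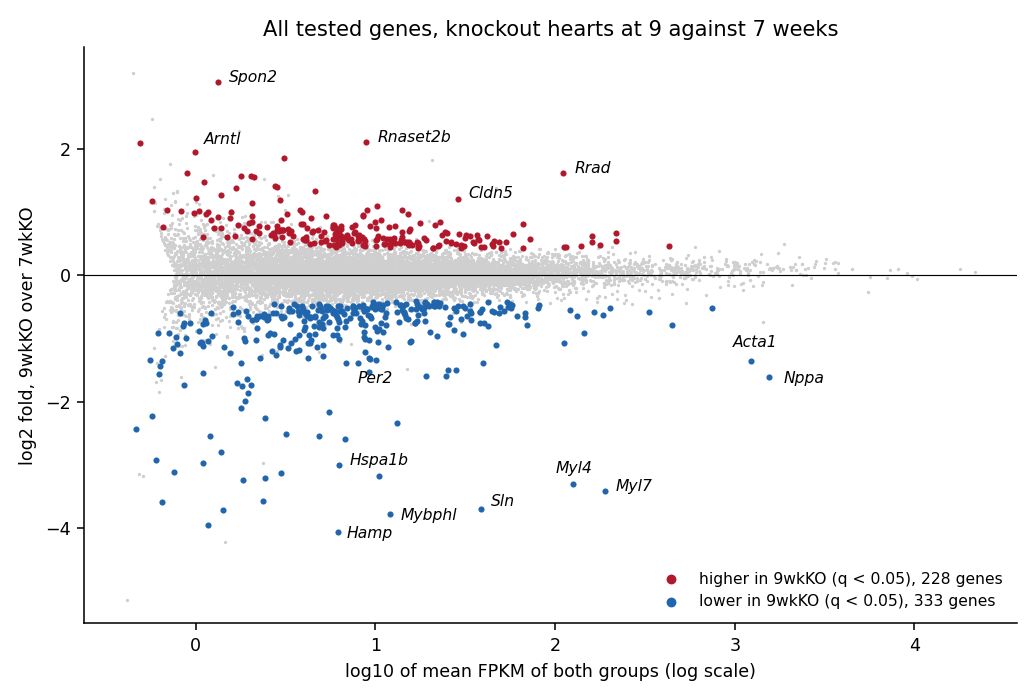
Each point is a tested gene, with the log10 of its mean FPKM over both groups on the horizontal axis and the log2 fold of 9wkKO over 7wkKO on the vertical axis; red points are the 228 genes called higher, blue points the 333 called lower and grey points are not called. The lower side reaches further, with Hamp, Mybphl, Sln, Myl7 and Myl4 near or below -3.3, and 1 gene that was not called lies below the drawn range.

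The labelled target was examined before other genes. In the authors' deposited table, Egfr had an FPKM of 1.59 in 9wkKO and 1.65 in 7wkKO, a log2 fold of -0.06 ± 0.35 (q = 0.991). This level covers the whole gene and is no check of the deletion. Of 6 tested EGFR family receptors and ligands, 0 passed the deposited Cuffdiff test, 1 had an unadjusted p under 0.05, and 0 passed by the statistic alone. Hbegf, an EGFR ligand, had 11.4 in 9wkKO and 14.6 in 7wkKO (q = 0.215 in the authors' deposited table). Among 11 tested ERK feedback genes, only Spry4, a Sprouty inhibitor of receptor kinase signalling, was called. With no adjustment, 4 members were higher and 0 lower at p under 0.05, 9 of the 11 lay above 0, and the median log2 fold was 0.29. Its FPKM was 7.29 in 9wkKO and 5.23 in 7wkKO per the authors' deposited table (log2 fold 0.48 ± 0.26, q = 0.0304), and it was not called by the statistic alone. Ppp2r3a, which encodes the PR72 subunit of protein phosphatase 2A (PP2A) named in the study title, had 49.7 in 9wkKO and 65.7 in 7wkKO and missed the threshold (q = 0.0723). The PP2A genes gave 0 calls of 23 tested by Cuffdiff, while 1 had an unadjusted p under 0.05, and 0 passed by the statistic alone.

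Among lists with at least 5 tested members, atrial muscle genes had the largest share of falls. Of 18 tested members, 12 were called lower and 0 higher, the median log2 fold was -0.88, and 17 members lay below 0. At an unadjusted p under 0.05 there were 13 lower members and 0 higher, and the statistic alone kept 7, all lower. The steepest falls were in contractile genes of atrial muscle. Mybphl, a myosin-binding protein (mm10, chromosome 3, 108364911 to 108383741), had an FPKM of 1.64 in 9wkKO and 22.3 in 7wkKO per the authors' deposited table, a log2 fold of -3.77 ± 0.46 (q = 0.00237). Myl7, the atrial regulatory myosin light chain (chromosome 11, 5896637 to 5898782), had 32.5 in 9wkKO and 345 in 7wkKO (log2 fold -3.41 ± 0.32), and the atrial essential light chain Myl4 had 23.2 in 9wkKO and 229 in 7wkKO (log2 fold -3.30 ± 0.31). Sln, sarcolipin, an inhibitor of the sarcoplasmic reticulum calcium pump that is abundant in atria (chromosome 9, 53850251 to 53853849), had 5.51 in 9wkKO and 71.4 in 7wkKO (log2 fold -3.70 ± 0.45). These 4 genes were lower by at least 9.83-fold in 9wkKO. Dkk3, a secreted Dickkopf family protein, had 4.38 in 9wkKO and 22.2 in 7wkKO, and the kinase gene Sbk3 had 2.02 in 9wkKO and 9.02 in 7wkKO per the authors' deposited table. Nppa, atrial natriuretic peptide, was by far the most abundant member and fell less steeply, to 767 in 9wkKO against 2327 in 7wkKO (log2 fold -1.60 ± 0.36).

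Signalling genes of the atrium fell by smaller amounts. Chrm2, the muscarinic receptor that slows the heart, had 5.81 in 9wkKO and 11.6 in 7wkKO (log2 fold -1.0 ± 0.46, q = 0.0437 in the authors' deposited table). Kcnj3, a subunit of the acetylcholine-activated potassium channel, had 7.94 in 9wkKO and 13.4 in 7wkKO, and its partner Kcnj5 had 17 in 9wkKO and 21.8 in 7wkKO without a call (q = 0.144). Pam, the peptide-amidating enzyme abundant in atrial granules, had 167 in 9wkKO and 239 in 7wkKO (q = 0.036). The 3 tested transcription factors of the list were not called. Tbx5 had 8.33 in 9wkKO and 8.41 in 7wkKO, and Nr2f2 had 8.19 in 9wkKO and 8.30 in 7wkKO, with q = 0.997 and q = 0.994 in the authors' deposited table. Nr2f1 had 2.8 in 9wkKO and 2.25 in 7wkKO (log2 fold 0.32 ± 0.38, q = 0.659).

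Node and conduction genes were lower in part. Of 13 tested, 6 were called lower and 0 higher (7 lower and 0 higher at an unadjusted p under 0.05), with a median log2 fold of -0.57, and the statistic alone kept 5. Hcn4, the pacemaker channel of the sinoatrial node, had an FPKM of 0.796 in 9wkKO and 2.60 in 7wkKO per the authors' deposited table (log2 fold -1.71 ± 0.41, q = 0.00237). Cntn2, a contactin of conduction fibres, had 0.616 in 9wkKO and 5.37 in 7wkKO (log2 fold -3.12 ± 0.34). The T-type calcium channel genes Cacna1h and Cacna1g had 1.61 and 2.71 in 9wkKO, against 3.68 and 5.68 in 7wkKO. Etv1, a transcription factor of fast-conducting muscle, had 1.72 in 9wkKO and 3.31 in 7wkKO. The node factors Tbx3 and Tbx18 were not called, with q = 0.792 and q = 0.941 in the authors' deposited table.

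Ventricular muscle genes gave the contrast within the same libraries. Of 10 tested, 1 was called higher and 0 lower (2 higher and 0 lower at an unadjusted p under 0.05), the median log2 fold was 0.14, and the statistic alone kept 0. Myl2, the ventricular regulatory light chain, had 21978 in 9wkKO and 21313 in 7wkKO (q = 0.994), and phospholamban, Pln, had 2504 in 9wkKO and 2493 in 7wkKO (q = 0.997 in the authors' deposited table). Kcnj2, the inward rectifier channel Kir2.1, was the called member, with 9.50 in 9wkKO and 5.89 in 7wkKO (log2 fold 0.69 ± 0.26, q = 0.00237). Among 27 tested sarcomere genes 2 were called (7.41%, against 4.66% over all tested genes), both lower, and the statistic alone kept 0. They were Lmod2, leiomodin, which elongates thin filaments (326 in 9wkKO and 564 in 7wkKO), and Nebl, nebulette of the Z-disc (11.9 in 9wkKO and 16.6 in 7wkKO per the authors' deposited table). Myoglobin, tropomyosin 1 and cardiac actin transcripts (Mb, Tpm1 and Actc1) had folds of 0.09, -0.07 and -0.02 on the log2 scale, and none was called.

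**Figure D2:**
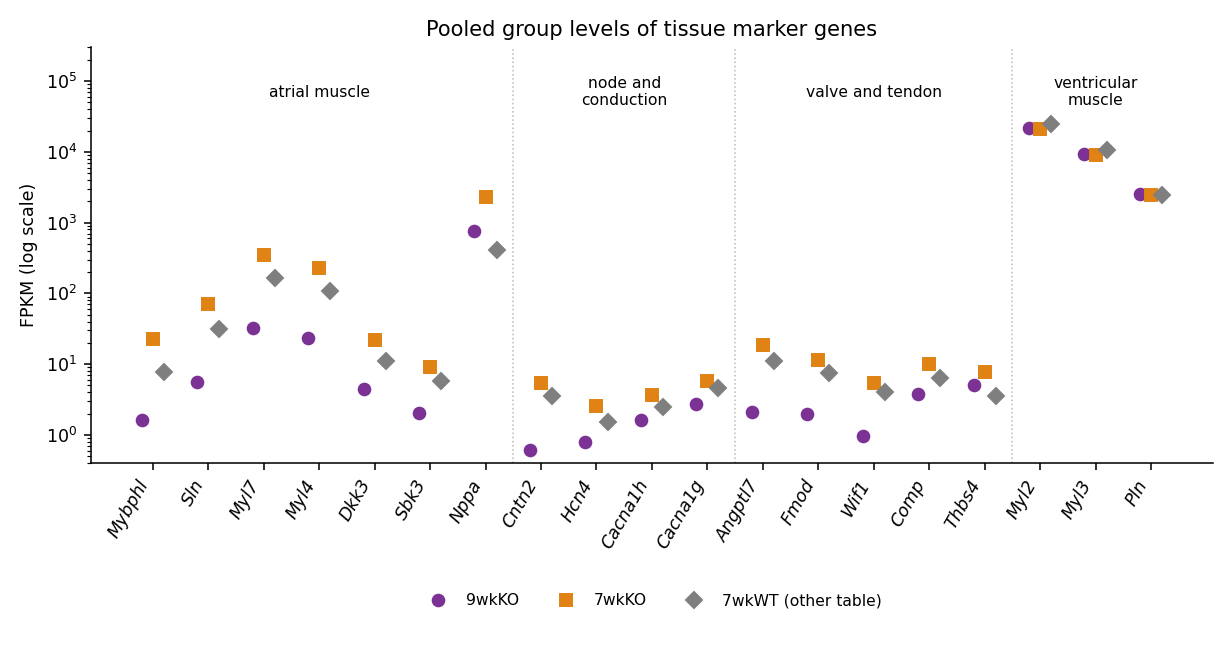
Pooled FPKM (log scale) of atrial, node and conduction, valve and tendon, and ventricular genes, with circles for 9wkKO, squares for 7wkKO and diamonds for 7wkWT from the other deposited table, which was normalized separately; no group has an error, since each has 1 deposited value. In the first 3 blocks the 9wkKO circle lies below the 7wkKO square for every gene drawn, while Myl2, Myl3 and Pln overlap. The genes drawn are a chosen part of each list. Members left out include Nr2f1 (atrial) and Irx3 (node), with log2 folds of 0.32 and 0.24, and the ventricular Kcnj2, with 0.69.

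Set beside the wild type level, the 4 genes with the steepest atrial falls lay below it in 9wkKO and above it in 7wkKO. In the other deposited table Myl7 had 343 in 7wkKO and 164 in 7wkWT, and Sln had 70.8 in 7wkKO and 31.7 in 7wkWT. Nppa was above the wild type level in both knockout groups, with 2314 in 7wkKO and 416 in 7wkWT there. The 2 tables share the 7wkKO samples, so a high or low 7wkKO value moves both comparisons at once. The 9wkWT samples were not analysed here, and no label gives the share of atrial tissue in a sample. The part of dissection, cell number or transcript level in these falls was not tested.

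Genes of the fetal and hypertrophy programme, which the stressed heart re-expresses, fell in part. Of 23 tested, 8 were called lower and 0 higher (12 lower and 0 higher at an unadjusted p under 0.05), the median log2 fold was -0.43, and the statistic alone kept 6. Over the 14 tested members held in no other list the median was -0.17. Nppa, Myl7 and Myl4 belong to the atrial list too. Outside it, Myh7, the slow myosin heavy chain, had 21.9 in 9wkKO and 57.5 in 7wkKO (log2 fold -1.39 ± 0.36, q = 0.00237 in the authors' deposited table). Acta1, skeletal alpha-actin, had 691 in 9wkKO and 1764 in 7wkKO (log2 fold -1.35 ± 0.52, q = 0.00604). The growth regulator Myc had 3.0 in 9wkKO and 7.26 in 7wkKO, and Mybpc2, fast myosin-binding protein C, had 19.5 in 9wkKO and 35.6 in 7wkKO per the authors' deposited table. The 7wkWT levels in the other deposited table were 15.7 for Myh7, 198 for Acta1, 2.33 for Myc and 10.4 for Mybpc2. For these genes the 9wkKO value lay between the 7wkKO and 7wkWT values. Other members above the 7wkWT level changed little. Ankrd23, Gdf15 and Rcan1 had 215, 9.15 and 50.2 in 9wkKO, against 222, 10.3 and 48.9 in 7wkKO. None was called (q = 0.993, q = 0.898 and q = 0.994 in the authors' deposited table). Their 7wkWT levels in the other deposited table were 113, 3.14 and 31.8. Stretch and load markers did not all pass. Nppb, B-type natriuretic peptide, had 453 in 9wkKO and 612 in 7wkKO (q = 0.130), and Ankrd1, a stretch-responsive ankyrin repeat protein, had 1070 in 9wkKO and 1785 in 7wkKO (q = 0.132). Xirp2 had 79.9 in 9wkKO and 108 in 7wkKO without a call (q = 0.293 in the authors' deposited table). Hamp, the iron hormone hepcidin, had the largest fall of any called gene, to 0.703 in 9wkKO against 11.7 in 7wkKO (log2 fold -4.05 ± 1.02), but its 9wkKO level is low. It was called by the statistic alone too. The other 14 of 15 tested iron handling genes were not called.

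Calcium handling and channel genes changed in both directions. Of 33 tested calcium handling genes, 2 were called higher and 5 lower, with a median log2 fold of -0.05, and the statistic alone kept 6. Rrad, a small GTPase of the RGK family that inhibits L-type calcium channels (chromosome 8, 104628066 to 104631321), had 168 in 9wkKO and 54.5 in 7wkKO per the authors' deposited table, a log2 fold of 1.62 ± 0.25 (q = 0.00237). It was also among the 10 genes that the statistic alone called higher. Its relative Rem1 had 5.23 in 9wkKO and 3.13 in 7wkKO (log2 fold 0.74 ± 0.37, q = 0.0133). The falls were Sln, Cacna1h and Cacna1g, named above, with Casq1 and Cacna2d2. Casq1, skeletal calsequestrin, had 13.2 in 9wkKO and 37.3 in 7wkKO, and the calcium channel subunit Cacna2d2 had 0.369 in 9wkKO and 4.39 in 7wkKO per the authors' deposited table. The pump gene Atp2a2 had 2630 in 9wkKO and 2702 in 7wkKO (q = 0.997), and Casq2, cardiac calsequestrin, had 402 in 9wkKO and 430 in 7wkKO (q = 0.956).

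Adrenergic and cAMP signalling genes had 4 of 36 called higher and 1 lower (13.9%, against 4.66% over all tested genes), and the statistic alone kept 0. Adrb1, the main beta-adrenergic receptor of heart muscle, had 11.7 in 9wkKO and 6.86 in 7wkKO (log2 fold 0.77 ± 0.27, q = 0.00237 in the authors' deposited table). Akap5, a scaffold that holds protein kinase A near channels, had 1.30 in 9wkKO and 0.659 in 7wkKO, and Rgs2, which shortens G protein signals, had 17.9 in 9wkKO and 12.8 in 7wkKO. The alpha-adrenergic receptor Adra1a had 2.95 in 9wkKO and 4.55 in 7wkKO (log2 fold -0.63 ± 0.30, q = 0.0104 in the authors' deposited table). Potassium channel genes had 2 of 34 called higher, Kcnj2 and Kcna2, and 4 lower, Kcne1, Kcnn2, Kcnj3 and Kcnj15. That is 17.6%, against 4.66% over all tested genes, and the statistic alone kept 0. Kcne1, the beta subunit of the slow delayed rectifier, had 3.16 in 9wkKO and 6.04 in 7wkKO per the authors' deposited table.

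Connective tissue genes split by type. Valve and tendon genes had 7 of 11 tested called lower and 0 higher, the same at an unadjusted p under 0.05. The statistic alone kept 4. Their median log2 fold of -1.39 was the lowest of the lists with at least 5 tested members, but this rank depended on low-level genes. Leaving out members under 1 FPKM in a group, the median over the other 7 was -0.59, against -0.88 for 18 atrial genes. Fmod, fibromodulin, a small proteoglycan that binds collagen fibrils (chromosome 1, 134037515 to 134048277), had 1.94 in 9wkKO and 11.6 in 7wkKO per the authors' deposited table (log2 fold -2.58 ± 0.35, q = 0.00237). Comp, cartilage oligomeric matrix protein, had 3.78 in 9wkKO and 9.90 in 7wkKO, and Angptl7 had 2.10 in 9wkKO and 18.8 in 7wkKO (log2 fold -3.17 ± 1.06, q = 0.00748). Wif1, a secreted Wnt inhibitor, had 0.950 in 9wkKO and 5.39 in 7wkKO per the authors' deposited table. Scx, a tendon transcription factor, and Sox9, of cartilage and valve cells, were not called (q = 0.926 and q = 0.994). Of 20 tested matricellular genes 8 were called lower and 0 higher (12 lower and 0 higher at an unadjusted p under 0.05), with a median log2 fold of -0.45, and the statistic alone kept 3. Ctgf, connective tissue growth factor, had 72.5 in 9wkKO and 152 in 7wkKO (log2 fold -1.07 ± 0.25), against 70.8 in 7wkWT in the other deposited table. Thbs1, thrombospondin 1, had 6.15 in 9wkKO and 10.5 in 7wkKO, and Postn, periostin, a marker of activated fibroblasts, had 31.9 in 9wkKO and 46.1 in 7wkKO (q = 0.00604 in the authors' deposited table).

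Among 26 tested collagen genes 9 were called lower and 1 higher, the median log2 fold was -0.21, and the statistic alone kept 1, Col5a3. All 4 tested minor chains of basement membrane collagen IV fell. Col4a3, Col4a4, Col4a5 and Col4a6 had 1.24, 1.88, 7.28 and 0.364 in 9wkKO, against 2.48, 2.89, 11.4 and 0.935 in 7wkKO per the authors' deposited table. The main chains Col4a1 and Col4a2 had 200 and 140 in 9wkKO, against 148 and 114 in 7wkKO, and were not called (q = 0.144 and q = 0.449). The main chains of fibrillar collagens I and III were not called. Col1a1 had 63.2 in 9wkKO and 65.3 in 7wkKO (q = 0.991), and Col3a1 had 91.1 in 9wkKO and 91.8 in 7wkKO (q = 0.997 in the authors' deposited table). Col5a3, a minor fibril chain, rose to 7.00 in 9wkKO against 3.67 in 7wkKO (log2 fold 0.93 ± 0.26). Col11a2, a chain of fibrillar collagen XI, fell to 0.431 in 9wkKO against 0.810 in 7wkKO (q = 0.0225 in the authors' deposited table). Fibroblast markers as a list had 1 of 18 called higher, Cd248, and 1 lower, Lum (11.1%, against 4.66% over all tested genes). Their median log2 fold was -0.01, their summed FPKM was 2013 in 9wkKO and 2216 in 7wkKO, and the statistic alone kept 0. Pdgfra and Tcf21 were among the members without a call. Of 29 tested remodelling genes, 2 were called higher and 4 lower (20.7%, against 4.66% over all tested genes), and the statistic alone kept 0. Mmp14, a membrane metalloproteinase, had 9.30 in 9wkKO and 5.85 in 7wkKO (q = 0.00427 in the authors' deposited table). Timp3, a tissue inhibitor of metalloproteinases, had 145 in 9wkKO and 223 in 7wkKO (q = 0.00604 in the authors' deposited table).

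**Figure D3:**
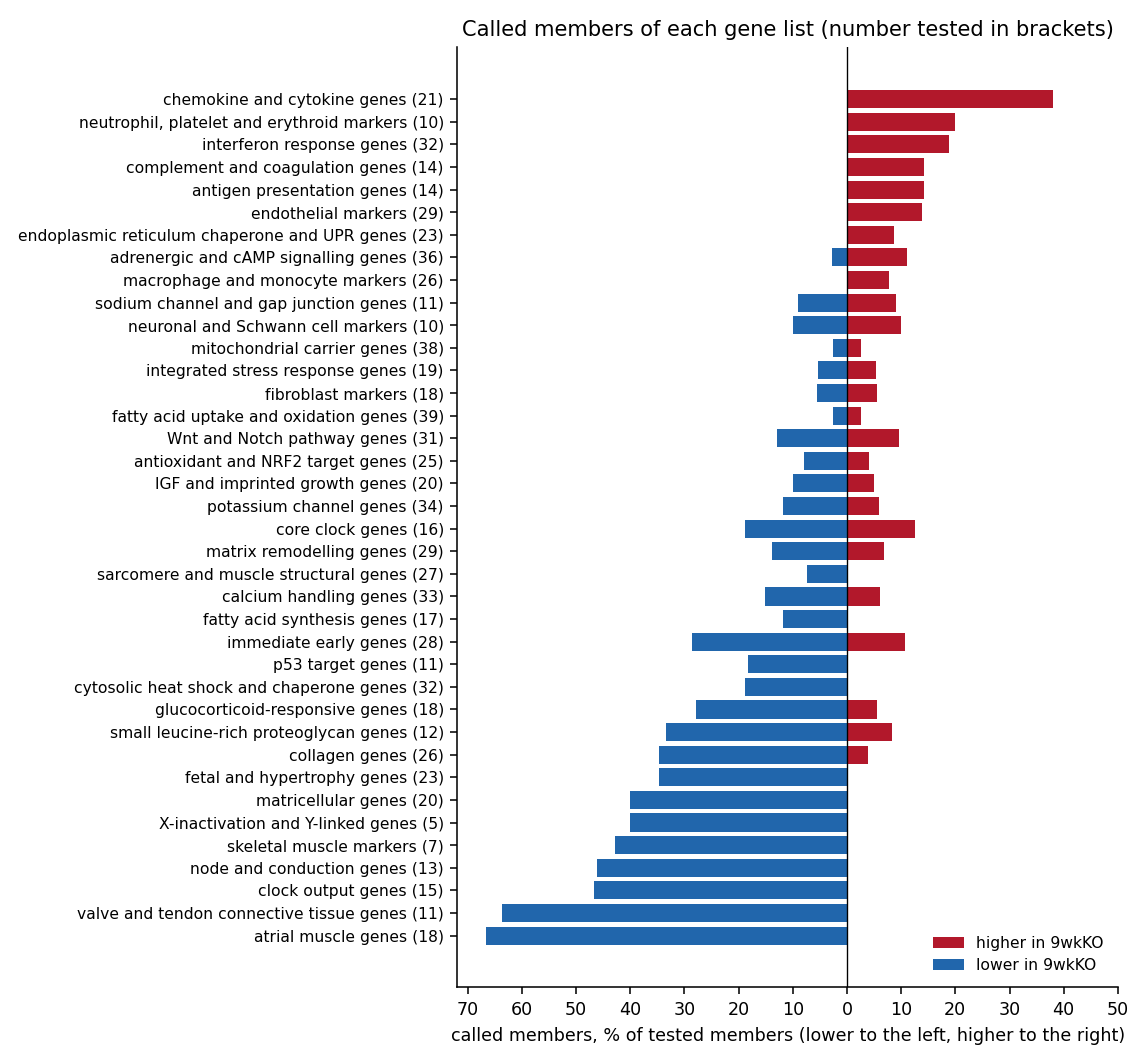
Share of tested members of each gene list that were called higher (red, to the right) or lower (blue, to the left) in 9wkKO, for lists with at least 5 tested members and at least 2 called; the number tested is in brackets. Atrial muscle genes reach furthest to the lower side, with 12 of 18, and chemokine and cytokine genes furthest to the higher side, with 8 of 21.

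Endothelial markers were higher in part. Of 29 tested, 4 were called higher and 0 lower (11 higher and 2 lower at an unadjusted p under 0.05), the median log2 fold was 0.20, and the statistic alone kept 1, Cldn5. Cldn5, claudin 5 of endothelial tight junctions (chromosome 16, 18776847 to 18778262), had 40.1 in 9wkKO and 17.4 in 7wkKO per the authors' deposited table, a log2 fold of 1.2 ± 0.26 (q = 0.00237). Kdr, the main receptor of vascular endothelial growth factor, had 84.9 in 9wkKO and 48.4 in 7wkKO (log2 fold 0.81 ± 0.25). Aplnr, the apelin receptor, had 27.1 in 9wkKO and 15.7 in 7wkKO, and Emcn, endomucin, had 57.1 in 9wkKO and 39.9 in 7wkKO per the authors' deposited table. In the other deposited table Aplnr had 15.6 in 7wkKO and 23.6 in 7wkWT (q = 0.005), while Cldn5, Kdr and Emcn were not called there. Other endothelial genes were not called between 9wkKO and 7wkKO. Cdh5, VE-cadherin, had 150 in 9wkKO and 117 in 7wkKO (q = 0.195), and Aqp1, a water channel, had 303 in 9wkKO and 383 in 7wkKO (q = 0.326). The summed FPKM of the 29 markers was 4407 in 9wkKO and 3574 in 7wkKO. Notch target genes Hes1 and Nrarp had 29.3 and 16.2 in 9wkKO, against 20.0 and 9.47 in 7wkKO, and were called (q = 0.00748 and q = 0.00237 in the authors' deposited table). Wnt and Notch pathway genes as a list went both ways, with 3 of 31 tested called higher and 4 lower. At an unadjusted p under 0.05 there were 7 higher and 7 lower, and the statistic alone kept 3, all lower. For pericytes and smooth muscle, 0 of 17 markers passed the deposited Cuffdiff test, 4 had an unadjusted p under 0.05, 3 higher and 1 lower, and the statistic alone kept 0.

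Chemokine and cytokine genes had 8 of 21 tested called higher and 0 lower (13 higher and 1 lower at an unadjusted p under 0.05), a median log2 fold of 0.53, and 19 members above 0. The statistic alone kept 1, Cxcl14. The monocyte attractants Ccl2 and Ccl7 had 4.12 and 3.02 in 9wkKO, against 1.57 and 1.02 in 7wkKO, with log2 folds of 1.39 ± 0.57 and 1.57 ± 0.68 (q = 0.00748 and q = 0.0281 in the authors' deposited table). Ccl6 had 29.3 in 9wkKO and 16.3 in 7wkKO, and Ccl9 had 8.01 in 9wkKO and 4.84 in 7wkKO. Cx3cl1, fractalkine, an adhesion molecule and attractant of activated endothelium, had 6.35 in 9wkKO and 3.97 in 7wkKO, and its receptor gene Cx3cr1 had 1.64 in 9wkKO and 0.587 in 7wkKO (log2 fold 1.48 ± 0.44, q = 0.00237 in the authors' deposited table). Among the 25 largest rises were also Icam1 and Bcl3. Icam1, a leukocyte adhesion receptor, had 11.3 in 9wkKO and 5.82 in 7wkKO, and Bcl3, a nuclear regulator of NF-kappa-B, had 5.11 in 9wkKO and 2.49 in 7wkKO per the authors' deposited table.

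Macrophage and monocyte markers had few calls. Of 26 tested, 2 were called higher, Cx3cr1 and Cd14, and 0 lower (3 higher and 2 lower at an unadjusted p under 0.05). That is 7.69%, against 1.89% called higher and 4.66% called in either direction over all tested genes. The median log2 fold was 0.14, and the statistic alone kept 0. The complement gene C1qa, abundant in tissue macrophages, had 88.5 in 9wkKO and 86.9 in 7wkKO (q = 0.994), and Lyz2, lysozyme, had 162 in 9wkKO and 131 in 7wkKO (q = 0.253 in the authors' deposited table). The summed FPKM of the macrophage list was 581 in 9wkKO and 523 in 7wkKO. Of 10 tested neutrophil, platelet and erythroid markers, 2 were called higher and 0 lower (5 higher and 0 lower at an unadjusted p under 0.05), with a median log2 fold of 0.69 and 9 members above 0, and the statistic alone kept 0. Ppbp, a platelet chemokine that the chemokine list holds too, had 4.83 in 9wkKO and 1.34 in 7wkKO (log2 fold 1.85 ± 0.54, q = 0.00237), and Alas2, the heme synthesis enzyme of red cells, had 9.48 in 9wkKO and 6.49 in 7wkKO (q = 0.0314 in the authors' deposited table). The row that joins Hba-a1 and Hba-a2 had 257 in 9wkKO and 177 in 7wkKO, and the row that joins Hbb-b1 and Hbb-bs had 498 in 9wkKO and 362 in 7wkKO. Both rows were called higher (q = 0.00427 and q = 0.0291 in the authors' deposited table). Their near-identical copies share reads, so single globin genes are uncertain. The neutrophil genes S100a8 and S100a9 had 1.87 and 2.91 in 9wkKO, against 0.626 and 0.598 in 7wkKO, without a call (q = 0.491 and q = 0.603). The part of blood left in the tissue was not tested. Lymphocyte markers stayed under an FPKM of 1 in both groups for all 17 members.

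Interferon response genes had small folds, all above 0. Of 32 tested, 6 were called higher and 0 lower (18 higher and 0 lower at an unadjusted p under 0.05), the median log2 fold was 0.35, and the folds ran between 0.09 and 1.0 on the log2 scale. The statistic alone kept 0. Ifi44 (chromosome 3, 151730923 to 151749959) had 5.20 in 9wkKO and 2.61 in 7wkKO per the authors' deposited table, a log2 fold of 1.0 ± 0.32 (q = 0.00237). The antiviral genes Oas2, Oasl2 and Rsad2 had 3.65, 7.30 and 18.1 in 9wkKO, against 2.40, 4.92 and 12.9 in 7wkKO. Bst2, tetherin, which holds budding virus at the membrane, had 62.9 in 9wkKO and 43.5 in 7wkKO, and Rtp4 had 10.3 in 9wkKO and 6.92 in 7wkKO per the authors' deposited table. In the other deposited table the 7wkWT level was 60.5 for Bst2, 4.32 for Oas2 and 3.01 for Ifi44. Irf7 and Isg15 had 14.3 and 14.4 in 9wkKO, against 11 and 10.7 in 7wkKO, without a call (q = 0.184 and q = 0.289). Antigen presentation genes had all 14 tested members above 0 with a median of 0.33, and 2 were called higher and 0 lower (8 higher and 0 lower at an unadjusted p under 0.05), with 0 by the statistic alone. The class II genes H2-Ab1 and H2-Eb1 had 54.3 and 35.0 in 9wkKO, against 37.1 and 25.1 in 7wkKO (q = 0.00427 and q = 0.0203 in the authors' deposited table). In the other deposited table they had 36.8 and 24.9 in 7wkKO, against 54.9 and 37.2 in 7wkWT (q = 0.0124 and q = 0.02). Their 9wkKO values thus lay near the 7wkWT level. Close relatives in the interferon and class II families can share reads, and these genes' levels are uncertain to that extent.

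Interferon target genes are known for the interferon-stimulated response element in their promoters, and its core, GAAA followed by GAAA with 2 bases of any kind between, was looked for on both strands in the 250 bases before RefSeq transcript starts (GRCm38.p6). Of 12011 tested genes with 1 symbol, 9167 had such a window. The core was present before 12 of the 23 interferon response genes with a window (52.2%), against 278 of the 9167 (3.03%). The list was made of interferon response genes, so this share does not bear on the change between the groups. Of these 12 genes, only 2 were called, Bst2 and Rsad2. Their 120 bases around the core are shown 5′ to 3′ on the gene's strand with the matches in capitals. The Bst2 stretch, chr8:71537535-71537654 on the minus strand, holds 2 overlapping matches, and the Rsad2 stretch, chr12:26456508-26456627 on the minus strand, holds 1 in the reverse orientation.
Bst2: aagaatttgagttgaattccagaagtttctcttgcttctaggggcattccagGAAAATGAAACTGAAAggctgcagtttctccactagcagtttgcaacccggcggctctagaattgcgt
Rsad2: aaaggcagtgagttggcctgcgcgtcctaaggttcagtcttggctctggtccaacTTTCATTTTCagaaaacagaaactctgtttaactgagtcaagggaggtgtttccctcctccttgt

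**Figure D4:**
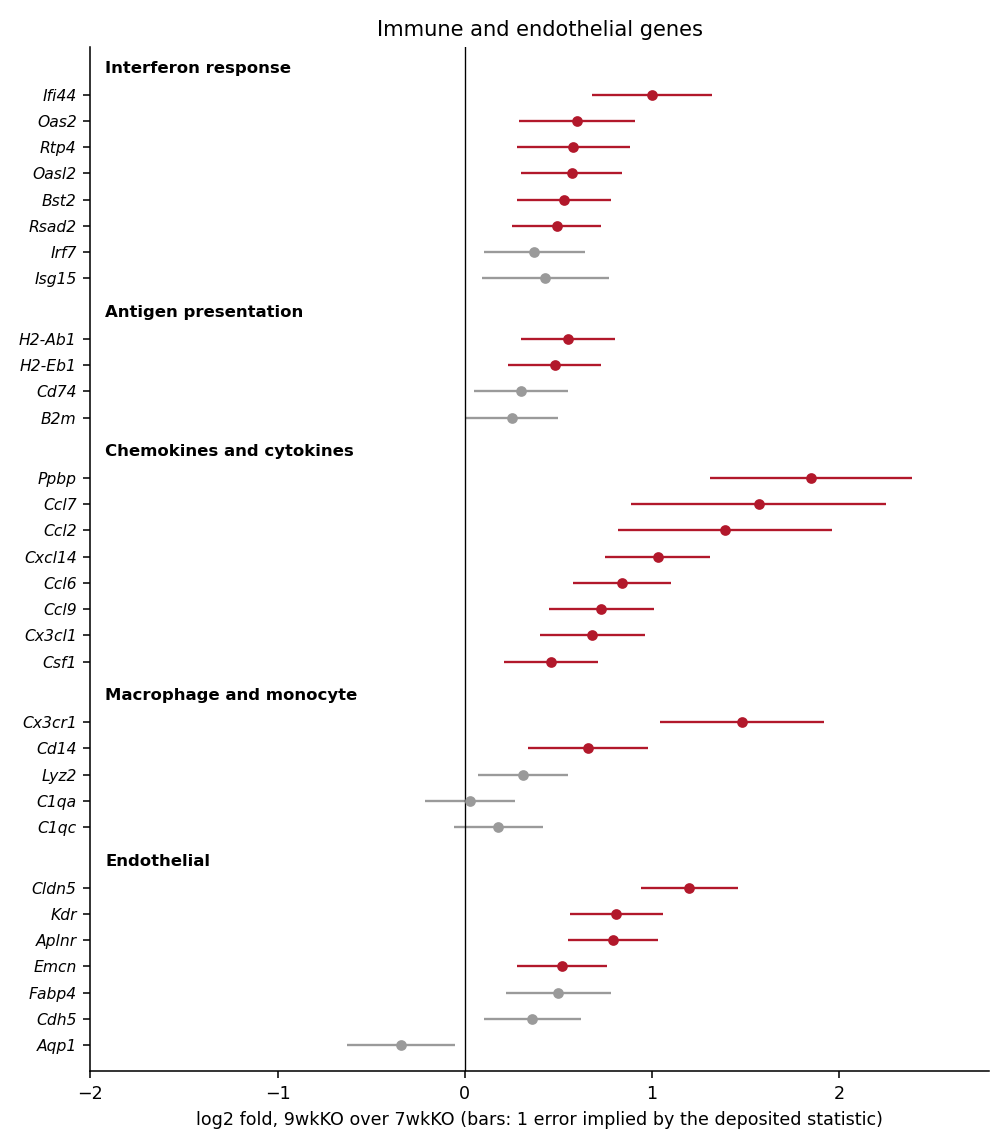
Log2 folds of 9wkKO over 7wkKO for immune and endothelial genes, with bars of 1 error implied by the deposited statistic; red points were called higher by the deposited q and grey points were not called. All genes of the interferon and antigen presentation blocks lie to the right of 0, while Aqp1 among the endothelial genes lies to the left. The genes drawn are a chosen part of each list. Over the whole lists, 7 of 26 tested macrophage, 2 of 21 chemokine and 7 of 29 endothelial members lay below 0. Among those not drawn are Trem2, Il33 and Rgcc, with log2 folds of -0.88, -0.53 and -0.4.

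Core clock genes changed in both directions. The clock runs on a loop in which BMAL1 (Arntl) and CLOCK switch on the Per, Cry and Nr1d genes, whose products then repress it, so that Arntl and Per transcripts peak at opposite times of day. Of 16 tested core genes, 2 were called higher and 3 lower, and the statistic alone kept 1, Per2. Arntl (chromosome 7, 113207465 to 113314126) had 1.57 in 9wkKO and 0.406 in 7wkKO per the authors' deposited table, a log2 fold of 1.95 ± 0.55 (q = 0.00237), at a low level in both groups. Its main isoform, NM_007489, had 1.25 in 9wkKO and 0.318 in 7wkKO and was not called (q = 0.472). Per2 (chromosome 1, 91415982 to 91459328) had 5.68 in 9wkKO and 14.4 in 7wkKO (log2 fold -1.34 ± 0.25, q = 0.00237), Per3 had 5.17 in 9wkKO and 8.54 in 7wkKO, and Cry1 had 5.96 in 9wkKO and 9.03 in 7wkKO. Nr1d1, the repressor REV-ERB-alpha, had 52.4 in 9wkKO and 37.1 in 7wkKO (q = 0.00894), while Per1 and Nr1d2 were not called (q = 0.466 and q = 0.172 in the authors' deposited table). In the other deposited table Per2 had 14.3 in both 7wkKO and 7wkWT, and Arntl had 0.403 in 7wkKO and 0.491 in 7wkWT. Nr1d1 differed there, with 36.8 in 7wkKO and 54.8 in 7wkWT (q = 0.005 in that table). Its 9wkKO value thus lay near the 7wkWT level.

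Clock output genes lay on 1 side. All 15 tested members had a fold below 0, with a median of -0.47, and 7 were called lower and 0 higher (10 lower and 0 higher at an unadjusted p under 0.05). The statistic alone kept 1, Wee1, a cell cycle kinase, which had 5.82 in 9wkKO and 11.5 in 7wkKO (log2 fold -0.98 ± 0.26, q = 0.00237 in the authors' deposited table). The transcription factors Hlf and Tef, which act through D-boxes, had 8.37 and 47.1 in 9wkKO, against 14.5 and 67.1 in 7wkKO. Their relative Dbp had 98.8 in 9wkKO and 115 in 7wkKO without a call (q = 0.716 in the authors' deposited table). Klf15, which links the clock and glucocorticoids to cardiac metabolism, had 22.7 in 9wkKO and 33.7 in 7wkKO (log2 fold -0.57 ± 0.24). Age and time of collection cannot be told apart here.

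The E-box CACGTG, the site of CLOCK and BMAL1, reads the same on both strands and was present in the same windows before 4 of 12 core clock genes and 3 of 11 clock output genes with a window, against 919 of 9167 tested genes. Counted by window, since a gene can have several starts, it was in 21.1% of the core clock windows and 28.6% of the clock output windows, against 8.27% of all 11765. The lists were made of clock genes, so these shares do not bear on the change between the groups. Among the called members of both lists the E-box was found for Cry1, Klf15 and Tef, all lower in 9wkKO. Their 120 bases are shown 5′ to 3′ on the gene's strand with the E-box in capitals, for Cry1 chr10:85185055-85185174 on the minus strand, for Klf15 chr6:90462326-90462445 on the plus strand, with 2 matches, and for Tef chr15:81802489-81802608 on the plus strand.
Cry1: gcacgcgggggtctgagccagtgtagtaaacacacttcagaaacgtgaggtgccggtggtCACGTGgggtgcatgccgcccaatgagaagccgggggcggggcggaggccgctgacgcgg
Klf15: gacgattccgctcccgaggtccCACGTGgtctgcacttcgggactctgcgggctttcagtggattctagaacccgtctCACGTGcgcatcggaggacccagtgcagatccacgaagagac
Tef: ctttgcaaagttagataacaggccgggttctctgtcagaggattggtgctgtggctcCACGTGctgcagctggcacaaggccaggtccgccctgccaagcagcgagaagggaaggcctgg

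Glucocorticoid-responsive genes had 1 of 18 tested called higher and 5 lower (4 higher and 8 lower at an unadjusted p under 0.05). Their median log2 fold was -0.22, and the statistic alone kept 2. Fkbp5, a co-chaperone of the glucocorticoid receptor (chromosome 17, 28398753 to 28486149), had 9.52 in 9wkKO and 28.6 in 7wkKO per the authors' deposited table, a log2 fold of -1.59 ± 0.24 (q = 0.00237). Zbtb16, a zinc finger factor, had 12.3 in 9wkKO and 37.0 in 7wkKO (log2 fold -1.58 ± 0.24). Tsc22d3, which encodes GILZ, had 104 in 9wkKO and 162 in 7wkKO, and Ddit4, an inhibitor of mTOR signalling, had 68.1 in 9wkKO and 94.4 in 7wkKO per the authors' deposited table. Klf15, listed with the clock output, is the remaining fall. Mt2, a metallothionein that zinc and glucocorticoids induce, rose to 194 in 9wkKO against 126 in 7wkKO (log2 fold 0.62 ± 0.24), and Mt1 had 928 in 9wkKO and 713 in 7wkKO without a call (q = 0.117). Sgk1 and Dusp1 were not called (q = 0.773 and q = 0.566 in the authors' deposited table). The 7wkWT level of Fkbp5 was 25 and that of Zbtb16 28.7 in the other deposited table.

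Called stress genes went in both directions. Cytosolic heat shock genes had 6 of 32 tested called lower and 0 higher (7 lower and 0 higher at an unadjusted p under 0.05), with a median log2 fold of -0.10, and the statistic alone kept 2. Those 2 were the inducible Hsp70 genes. Hspa1b (chromosome 17, 34956429 to 34959238) had 1.41 in 9wkKO and 11.2 in 7wkKO per the authors' deposited table, a log2 fold of -2.99 ± 0.35 (q = 0.00237), and Hspa1a had 1.42 in 9wkKO and 8.27 in 7wkKO (log2 fold -2.54 ± 0.35). Their coding sequences are near identical, so how reads are split between them is uncertain. Their 7wkWT levels, 19.1 for Hspa1b and 15.3 for Hspa1a in the other deposited table, were above both knockout groups. The Hsp40 co-chaperones Dnaja1, Dnajb1, Dnajb4 and Dnajb5 had 12.3, 9.11, 54.1 and 42.1 in 9wkKO, against 20.8, 13.7, 82.0 and 62.3 in 7wkKO, and all were called (each q = 0.00237 in the authors' deposited table). The abundant chaperones did not pass. Hspa8 had 873 in 9wkKO and 969 in 7wkKO (q = 0.919), and Cryab, the small heat shock protein of heart muscle, had 3512 in 9wkKO and 2942 in 7wkKO (q = 0.752).

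Chaperones of the endoplasmic reticulum had 2 of 23 called higher and 0 lower (7 higher and 1 lower at an unadjusted p under 0.05). That is 8.70%, against 1.89% called higher and 4.66% called in either direction over all tested genes. The median log2 fold was 0.11, and the statistic alone kept 0. The called genes were Sdf2l1, at 12.6 in 9wkKO and 7.50 in 7wkKO, and the disulfide isomerase Pdia6, at 76.3 in 9wkKO and 56.6 in 7wkKO (q = 0.00427 and q = 0.0321 in the authors' deposited table). Hspa5, the master chaperone BiP, had 314 in 9wkKO and 243 in 7wkKO without a call (q = 0.202). Immediate early genes, which respond within minutes to stimulation or handling, had 3 of 28 called higher and 8 lower, with a median log2 fold of -0.09, and the statistic alone kept 4, all lower. Fos, Egr1 and Junb had 4.12, 11.2 and 22.6 in 9wkKO, against 1.80, 5.86 and 12.8 in 7wkKO. Atf3, Ier5, Jun and Nr4a3 had 4.46, 21.2, 38.6 and 1.89 in 9wkKO, against 11.6, 40.1, 58.6 and 3.10 in 7wkKO per the authors' deposited table. Both directions thus occur within the AP-1 family, with Fos and Junb higher and Jun and Atf3 lower in 9wkKO. Among 19 tested integrated stress response genes, only Atf3 and Asns, asparagine synthetase, were called. That is 10.5%, against 4.66% over all tested genes, and the statistic alone kept Atf3. Asns had 3.13 in 9wkKO and 1.86 in 7wkKO (q = 0.035), and Atf4, the central factor of that response, had 75.1 in 9wkKO and 83.7 in 7wkKO without a call (q = 0.808 in the authors' deposited table).

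**Figure D5:**
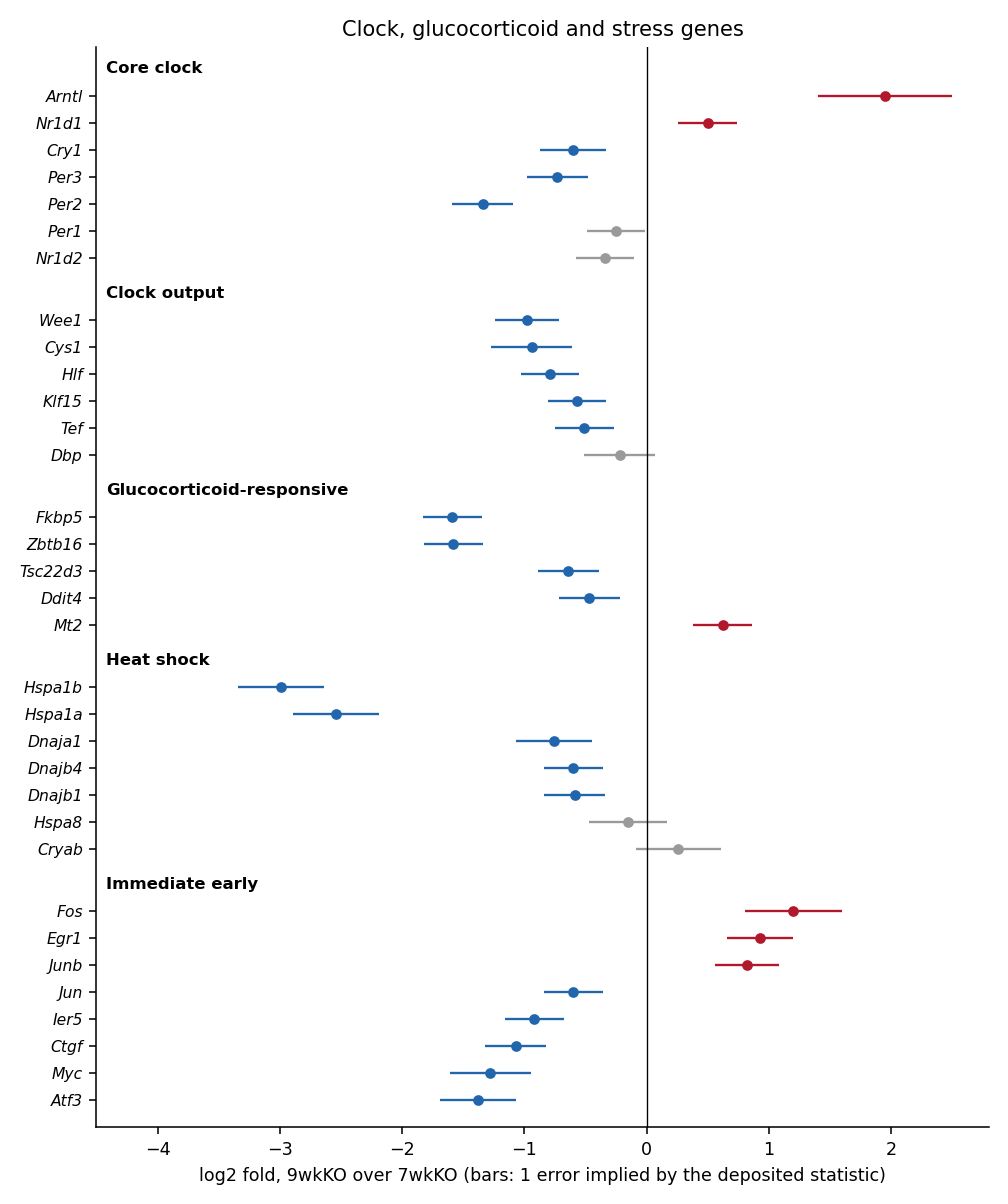
Log2 folds of 9wkKO over 7wkKO for core clock, clock output, glucocorticoid-responsive, heat shock and immediate early genes, with bars of 1 error implied by the deposited statistic; red points were called higher, blue points called lower and grey points not called. Arntl at 1.95 and Per2 at -1.34 stand at opposite ends of the clock genes, and Hspa1b at -2.99 is the lowest point drawn. The genes drawn are a chosen part of each list.

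Respiratory chain and ribosomal protein genes had small folds, mostly above 0, and none was called. For mitochondrial complex I, 0 of 37 genes passed the deposited Cuffdiff test, 1 had an unadjusted p under 0.05, higher, and 0 passed by the statistic alone. Of these 37, 35 had a log2 fold above 0, with a median of 0.12. The list holds Ndufa4, which despite its name is counted with complex IV. Respiratory complexes II to V had 0 of 41 called by Cuffdiff, 1 at an unadjusted p under 0.05, 0 by the statistic alone, and 38 above 0 with a median of 0.10. Cytosolic ribosomal protein genes had 0 of 77 called by Cuffdiff, 2 at an unadjusted p under 0.05, 0 by the statistic alone, and 72 above 0 with a median of 0.11. Ndufb8 of complex I had 1692 in 9wkKO and 1558 in 7wkKO, Cox7a1 of complex IV had 3872 in 9wkKO and 3342 in 7wkKO, and the ribosomal Rplp1 had 1364 in 9wkKO and 1218 in 7wkKO per the authors' deposited table (q = 0.926, q = 0.718 and q = 0.819). The 91 tested genes with a mean FPKM of at least 1000 had a median log2 fold of 0.10. They include members of these families, such as Ndufb8, Cox7a1 and Rplp1, so that median is no separate check on the family medians. For glycolysis and related genes 0 of 34 passed Cuffdiff, with 0 at an unadjusted p under 0.05 and 0 by the statistic alone. Among 39 fatty acid genes 2 were called, a share of 5.13% that is near the 4.66% over all tested genes, and the statistic alone kept neither. Acot1, a thioesterase, was called higher (10.2 in 9wkKO and 6.70 in 7wkKO). Ppargc1a, a coactivator of mitochondrial genes, was called lower (18 in 9wkKO and 25.1 in 7wkKO per the authors' deposited table). Cell cycle and DNA replication genes had 0 of 24 called by Cuffdiff, with 0 at an unadjusted p under 0.05 and 0 by the statistic alone. Their summed FPKM was 264 in 9wkKO and 265 in 7wkKO.

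Markers bearing on the samples themselves also moved. X and Y chromosome transcripts were both present in each group. Xist had 3.23 in 9wkKO and 4.46 in 7wkKO (q = 0.98), while the Y-linked Eif2s3y had 14.9 in 9wkKO and 21.6 in 7wkKO and Uty had 1.67 in 9wkKO and 2.68 in 7wkKO, both called (q = 0.0471 and q = 0.0304 in the authors' deposited table). Ddx3y and Kdm5d had 9.69 and 1.14 in 9wkKO, against 13.2 and 1.81 in 7wkKO, without a call (q = 0.141 and q = 0.0579). The statistic alone called none of these genes. The part of the sex makeup of the groups in other calls was not tested. Rn45s, the ribosomal RNA precursor, had 29.9 in 9wkKO and 18.7 in 7wkKO (q = 0.00237). All 15 lung, liver, thymus and cartilage markers were at or below an FPKM of 0.320 in both groups. Of 10 tested neuronal and Schwann cell markers, 1 was called higher and 1 lower, and the statistic alone kept 0. Dbh, which makes noradrenaline in sympathetic nerves, had 0.561 in 9wkKO and 1.63 in 7wkKO, and Gfra3, a growth factor receptor of neurons and glia, had 2.10 in 9wkKO and 1.04 in 7wkKO per the authors' deposited table. Of the 5 tested Y-linked genes, 2 were called, and the other chromosomes with over 300 tested genes had between 3.53% and 6.85% of their genes called.

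Of 15531 tested isoforms, 455 were called (2.93%), 189 higher (1.22%) and 266 lower (1.71%), in 455 different genes, so no gene had 2 called isoforms. Of these, 366 belong to genes with a single listed isoform. In 18 genes an isoform was called while the gene was tested without a call. Pacsin3, a membrane-bending protein of muscle, had 1 of 4 isoforms called, NM_030880, at 45.8 in 9wkKO and 23.4 in 7wkKO (q = 0.0456), and that isoform made up 42.0% of the gene's summed isoform FPKM in 9wkKO and 22.9% in 7wkKO per the authors' deposited table. Ctnna3, alpha-T-catenin of the intercalated disc, had its isoform NM_001164376 at 3.17 in 9wkKO and 5.78 in 7wkKO (q = 0.00342), 61.4% and 87.6% of the summed isoforms in those groups. Within a called gene, Postn had its isoform NM_015784 at 5.86 in 9wkKO and 15.4 in 7wkKO (q = 0.0107), while NM_001198766 had 19.8 in 9wkKO and 16.3 in 7wkKO without a call (q = 0.921 in the authors' deposited table). Shares were not tested.

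The largest rise among genes with an FPKM of at least 1 in both groups was that of Rnaset2b, a secreted ribonuclease (chromosome 17, 8128591 to 8147832), with 14.4 in 9wkKO and 3.37 in 7wkKO per the authors' deposited table (log2 fold 2.10 ± 0.41, q = 0.00237). It has a close duplicate, and a second locus listed under the same symbol in the isoform table had 1.97 in 9wkKO and 5.01 in 7wkKO (q = 0.334), so the reads of this pair may be split unevenly and the rise is uncertain. Other large rises outside the groups above were those of Nepn, a proteoglycan at 3.14 in 9wkKO and 1.07 in 7wkKO, Efhd1, a mitochondrial calcium-binding protein at 4.01 in 9wkKO and 1.51 in 7wkKO, and Hlx, a homeobox factor at 12 in 9wkKO and 5.89 in 7wkKO. Large falls outside them included those of Otud1, a deubiquitinase at 14.6 in 9wkKO and 41.2 in 7wkKO, Fam107a at 4.71 in 9wkKO and 13.7 in 7wkKO, and Ip6k3, an inositol phosphate kinase of muscle at 5.30 in 9wkKO and 13.1 in 7wkKO per the authors' deposited table. Among abundant genes, Ptgds, prostaglandin D synthase, had 616 in 9wkKO and 884 in 7wkKO (q = 0.0413), Txnip, a glucose-responsive inhibitor of thioredoxin, had 266 in 9wkKO and 398 in 7wkKO (q = 0.00894), and the tubulin gene Tubb4b had 269 in 9wkKO and 170 in 7wkKO (q = 0.00237).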

How the data were processed

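Poly(A)-selected stranded libraries were prepared from cardiac samples, per the labels' protocols. The reads were processed with TopHat2 and Cuffdiff on genome build mm10, per the submitters' processing notes, with no version or setting named there. The authors' deposited tables hold 1 FPKM value per group, a p-value, a q-value adjusted over the tested rows and the Cuffdiff test statistic, a score without a set range. Depth per sample is unknown, so no counting interval or SD is given. The deposited p-values are multiples of 5e-05, and their normal deviate was 1.74 times the deposited statistic in the median over 11791 genes. The 7wkKO values differed by a median of 0.779% between both deposited tables over 11513 genes, since each table was normalized separately.

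The log2 fold was recomputed from the deposited FPKM with no pseudocount, and its error as the fold divided by the statistic. Genes with the authors' status OK and deposited q under 0.05 were called. The members and the 67 gene lists were chosen with earlier results of these data known. Named genes were Egfr and Ppp2r3a, among genes reaching an FPKM of 1 in both groups the 25 largest rises and falls, 12 or fewer called and 6 uncalled members per list, isoforms, the 10 most abundant called genes and 10 at the threshold. Rn45s, Pdgfra, Tcf21, Gdf15, Rcan1, Trem2 and Rgcc were named after their values were seen. Lists overlap, with 75 genes in more than 1. The scripts were tested on simulated data and used Python 3.11.15, pandas 2.3.3, NumPy 2.4.6, SciPy 1.17.1 and Matplotlib 3.10.9. Promoter windows came from RefSeq (GRCm38.p6) and were searched for 9 motifs, of which 2 are described. Thresholds, low-value filters, adjustment, scaling, a pseudocount of 1 and the statistic alone were tried as alternatives. At least 1 gene is not reported here.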

Additional observations from a re-analysis of the deposited data

How the results depend on the processing

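Of the 561 genes called (228 higher, 333 lower), 337 passed a q of 0.01 (123 higher, 214 lower) and 123 had a log2 fold of at least 1 in size (29 higher, 94 lower). With a pseudocount of 1, 56 had a log2 fold of that size (7 higher, 49 lower), as construction of that scale shrinks low genes. The deposited statistic alone called 69 (10 higher, 59 lower), and the cause of its distance from the deposited p was not tested. Of the 455 isoforms called (189 higher, 266 lower), 268 passed a q of 0.01 (101 higher, 167 lower) and 58 passed by the statistic alone (7 higher, 51 lower). A q of 0.1, an FPKM filter, recomputed adjustment, centring and calls from isoforms kept the gene counts within 1.5 times, between 453 and 723. Among 189 called genes of the 555 named, 46 were called by the statistic alone and 0 changed sign under centring or the pseudocount. No paired analysis was possible because the columns hold 1 pooled value per group. Leaving out replicates was not run for the same reason. Of the called genes, 76 had an FPKM under 1 in a group, and the reads behind them are unknown.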

Other observations

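Called genes with an FPKM under 1 in a group numbered 76, with 21 higher and 55 lower in 9wkKO. Clec3a, a C-type lectin of cartilage, had 0.143 in 9wkKO and 2.19 in 7wkKO per the authors' deposited table (log2 fold -3.94 ± 0.78, q = 0.00237). Ppp1r1b, the dopamine-regulated phosphatase inhibitor DARPP-32, had 0.346 in 9wkKO and 2.41 in 7wkKO, and Drd2, a dopamine receptor, had 0.943 in 9wkKO and 3.14 in 7wkKO. Ache, which breaks down acetylcholine, had 0.760 in 9wkKO and 3.01 in 7wkKO (log2 fold -1.99 ± 0.49, q = 0.00237). Spon2, a spondin of the extracellular matrix, showed the largest rise of any called gene, with 2.38 in 9wkKO and 0.287 in 7wkKO (log2 fold 3.05 ± 0.65, q = 0.00237 in the authors' deposited table). These genes were picked after their values were seen.

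Among other called genes, Irs2, an insulin receptor substrate, had 2.32 in 9wkKO and 5.23 in 7wkKO per the authors' deposited table. Foxo3, a transcription factor that insulin signalling holds out of the nucleus, had 7.71 in 9wkKO and 14.4 in 7wkKO, while its relative Foxo1 had 13.2 in 9wkKO and 13.3 in 7wkKO without a call (q = 0.997). Sesn1, a stress-induced sestrin, had 51.3 in 9wkKO and 88.2 in 7wkKO, while Sesn2 had 1.79 in 9wkKO and 1.54 in 7wkKO without a call (q = 0.888). Irs2, Foxo3 and Sesn1 were called lower (each q = 0.00237) and were chosen after their values were seen. Of the called genes with 1 symbol, 391 are in no list.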
